A study of Drosophila melanogaster with 20 samples.

Results

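The nuclear genes of complex I were examined in Drosophila melanogaster larvae that carried changes in the mitochondrial S-adenosylmethionine (SAM) carrier. Members were all rows whose gene symbol starts with ND-, the fly prefix for nuclear-encoded NADH dehydrogenase subunits, which gave 41 of the 14081 genes in the deposited tables. They comprised 34 general subunits, 6 paralogues whose symbol adds an L to that of a general subunit (ND-20L, ND-24L, ND-49L, ND-51L1, ND-51L2 and ND-B14.5AL), and 1 further row. That row shares the symbol ND-AGGG with a general subunit, but its identifier belongs to CG40472 in the Ensembl annotation, and it is called CG40472 below. ND-MNLL ends in L without having such a partner and was kept with the general subunits.

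RNA was sequenced, after removal of ribosomal RNA, from whole larvae aged 4 days at 25 °C, with 5 libraries in each of 4 groups on the wDah genetic background. The groups were the control, DmSAMC.I172G (I172G, labelled mild), DmSAMC.P223L (P223L, labelled severe) and a SAMC-null line, also labelled severe, whose genotype combines M1fs and M39*. The labels state no sex, no number of larvae per library and no separate cultures, so p-values measure only the spread between these samples, which may be technical. The transcript of the carrier gene CG4743 averaged 125 ± 20.2 (SD, n = 5) normalised read counts in controls. It was higher in P223L larvae, at 207 ± 24.6 (limma adjusted p = 0.000218), and in I172G larvae, at 171.5 ± 22.7 (adjusted p = 0.0285), a call lost without any of 5 single libraries (adjusted p up to 0.0674). SAMC-null larvae held 112 ± 12.8, a difference that did not pass the test on the deposited scale (adjusted p = 0.346). The level of the transcript does not check a protein change or a frameshift.

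Complex I is the first and largest enzyme of the mitochondrial respiratory chain. It takes electrons from NADH through a flavin and a chain of iron-sulfur clusters in its matrix arm, hands them to ubiquinone, and pumps protons through its membrane arm. Conserved core subunits carry out this chemistry, the membrane core is encoded in mitochondrial DNA, and nuclear accessory subunits surround the core and stabilise it. SAM made in the cytosol enters the matrix through the carrier and is the methyl donor for reactions there.

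All values are the authors' normalised read counts, from one normalisation over the 20 libraries. Their sums ran from 33.2 to 35.4 M (M for mega) in control, from 32.99 to 36.6 M in I172G, from 22.1 to 22.9 M in SAMC-null, and from 24.8 to 26.1 M in P223L libraries. From the most frequent lowest value, 1 read corresponded to 0.753 to 1.17 normalised counts, or about 23.4 to 35.2 M reads per library, whereas the labels state a depth of 3 M. That scale is approximate, since 58.9% to 78.7% of values up to 20 such steps lay within 0.1 of a whole number. Log2 fold changes are on the log2(value + 1) scale and were tested with limma over all genes with at least 10 counts in 5 libraries of the pair, at an adjusted p of 0.05. In the severe lines the direction of many members depended on the scale. Fat body storage proteins, which summed to 3.59 to 4.30 M in controls, summed to 63.9 to 326 in P223L and 157 to 327 in SAMC-null larvae. Scaling every library to the same sum moved the median of all genes against control from -0.06 to 0.36 in P223L and from -0.06 to 0.55 in SAMC-null. Counts of general subunits called are therefore given on both scales. Against control, counts relative to the median of all genes are also given. Total-sum scaling multiplies each library by a common factor, and so moves that median and the subunits nearly alike. That these counts barely depended on the scale is therefore set by construction and is no check of them.

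In SAMC-null larvae 33 of 34 general subunits fell on the deposited scale and none rose, against backgrounds of 43.5% of all tested genes lower and 38.2% higher, while total-sum scaling gave 17 lower and 4 higher of 33 tested, against 26.5% and 60.9% of all genes. The median was -0.78 on the log2 scale, against -0.06 for all genes, and 33 of 34 lay below the median of all genes. All 33 were also wholly below control, with no library of either group overlapping, where the background was 38.6%, and none was wholly above, where it was 33.3%. In P223L larvae 21 of 34 fell and 1 rose on the deposited scale, against backgrounds of 42.4% lower and 36.3% higher, and total-sum scaling turned this to 5 lower and 17 higher, against 28.5% and 54.8% of all genes. The P223L median was -0.26 against -0.06 for all genes, and 26 of 34 lay below the median of all genes on either scale. P223L lay wholly below control for 15 and wholly above for 1, against backgrounds of 37.2% and 31.0%. In I172G larvae 6 of 34 fell, the same share as the background of 17.6%, and none rose by limma's adjusted p, where the background was 14.6%. None rose at an unadjusted p under 0.05 either. The I172G median was -0.12 against -0.03 for all genes, 26 of 34 lay below the median of all genes on either scale, and total-sum scaling gave 7 lower, against 18.7% of all genes. ND-B8, which passed the filter only through its high control level, is among the members counted as lower in each line. Without it 5 of 33 fell in I172G, 20 of 33 in P223L and 32 of 33 in SAMC-null on the deposited scale, with medians of -0.12, -0.24 and -0.77, and 14 and 32 lay wholly below control in P223L and SAMC-null. The authors' deposited table, by its own adjusted p of 0.05, listed 0, 1 and 3 of 34 as lower in I172G, P223L and SAMC-null, against 0.699%, 18.7% and 20.1% of all genes. It listed none of the 34 as higher in any line, against 0.293%, 8.35% and 9.65% of all genes. In that table the p-value was 1 for all 28191 values, over the 3 comparisons, with a log2 fold change under 1 in size, as in a test against a log2 fold change of 1. Its counts therefore do not test whether a smaller change differs from 0.

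The severe lines also differed from each other. All 33 general subunits tested were higher in P223L than in SAMC-null larvae, with a background of 22.4%, and in all 33 every P223L library lay above every SAMC-null library, with a background of 16.4%. Their log2 differences ran from 0.31 for ND-B18 to 0.87 for ND-B14.5A, with a median of 0.51 against -0.02 for all genes. None was lower or wholly below, with backgrounds of 25.1% and 17.5%. Total-sum scaling left 32 of 33 higher and none lower, against 10.4% and 52.0% of all genes. Between P223L and I172G, 4 of 33 were higher and 19 lower, with backgrounds of 38.0% and 42.9%, and the median was -0.22 on the deposited scale. Of the 33, 2 lay wholly above and 7 wholly below, with backgrounds of 33.0% and 37.7%. Total-sum scaling turned that comparison to 22 higher and 2 lower, against 56.6% and 27.9% of all genes. The 3 comparisons with control share the same 5 control libraries.

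**Figure D1:**
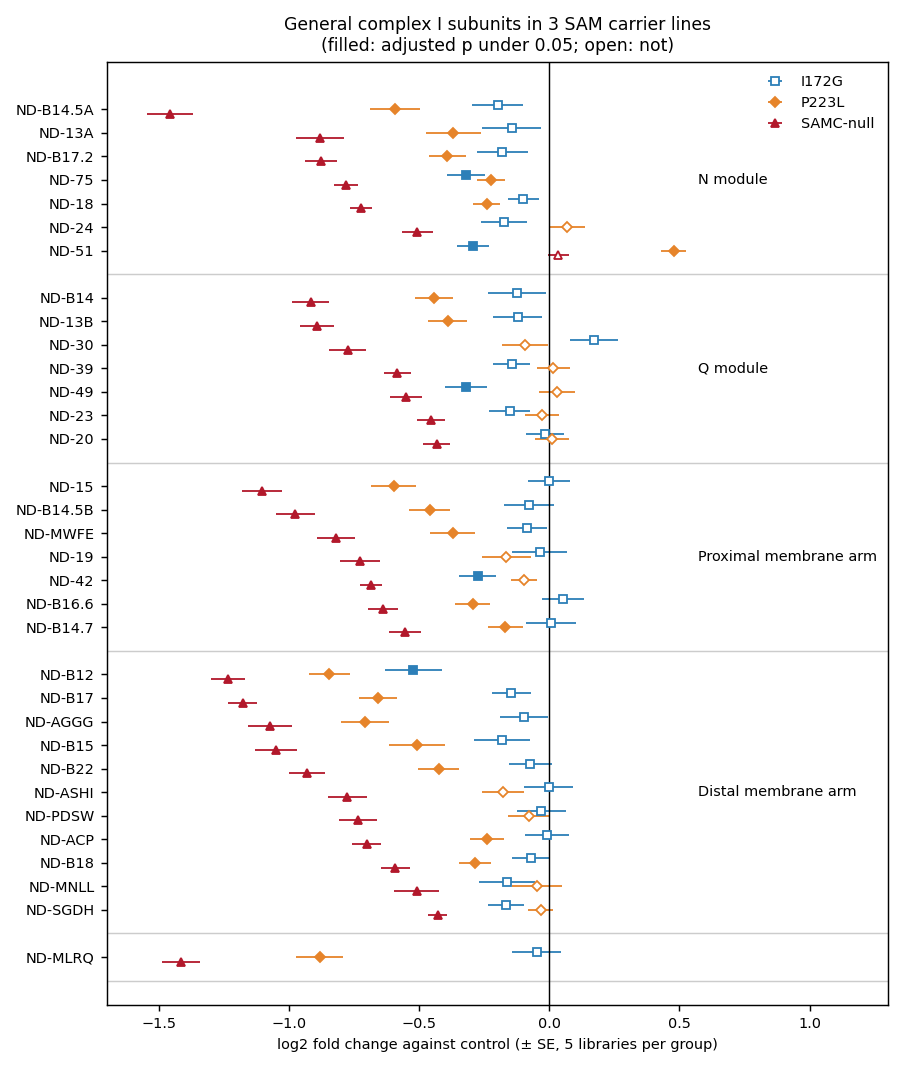
Log2 fold change against control on the deposited scale, with its standard error, for 33 general subunits grouped by place in the complex; ND-B8 is left out for its low counts, and filled symbols passed an adjusted p of 0.05. SAMC-null values lie to the left of P223L values for every subunit shown, and ND-51 is the subunit with a P223L value clearly right of 0; 17 P223L subunits are called higher under total-sum scaling.

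Summed over the 34 general subunits, control libraries held 92890 to 110599 normalised counts and I172G libraries 80361 to 103090. P223L libraries held 84034 to 101376 and SAMC-null libraries 61672 to 67882. The SAMC-null sums lay wholly below all other groups, while the remaining groups overlapped. As a share of the library sum, the general subunits took 0.354% ± 0.0244 in P223L, 0.306% ± 0.0227 in control, 0.283% ± 0.0139 in SAMC-null and 0.271% ± 0.0188 in I172G libraries (SD, n = 5). P223L was thus the highest group by share and SAMC-null the lowest by normalised count. In whole larvae, fewer cells of a type and less RNA per cell cannot be told apart.

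Among the core subunits, ND-51 (the homologue of mammalian NDUFV1) binds NADH and the flavin, and it was the general subunit that did not fall in SAMC-null and the one that rose in P223L on the deposited scale. Its normalised counts in replicates 1 to 5 were 6825, 6532, 6343, 6139 and 6376 in control and 4954, 5588, 5647, 5440 and 4687 in I172G. They were 9722, 9144, 8420, 8759 and 8871 in P223L and 6992, 6604, 6574, 6481 and 6347 in SAMC-null. All P223L libraries lay above all others, all I172G libraries lay below all others, and control and SAMC-null overlapped. ND-51 was higher than control in P223L by 0.48 ± 0.05 (log2, SE; limma adjusted p = 1.29e-06) and lower in I172G by -0.29 ± 0.06 (adjusted p = 0.00567). P223L exceeded I172G by 0.77 ± 0.06 (adjusted p = 8.41e-08). In SAMC-null the difference was 0.03 ± 0.04 (adjusted p = 0.446) on the deposited scale and 0.64 (adjusted p = 1.64e-08) under total-sum scaling. ND-51 lies on chromosome arm 2L, bases 6060842 to 6062757 on the minus strand (BDGP6.54), and shares exon bases with CG34180 on the other strand. CG34180 averaged 12.5 normalised counts in control and 20.1 in P223L, a small part of either ND-51 level.

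ND-75, the homologue of NDUFS1 and the subunit that holds several of the iron-sulfur clusters, followed another pattern. In control larvae it stood at 9144, 9685, 8812, 8228 and 8632, and in I172G at 6799, 7492, 7866, 7412 and 6147. P223L libraries held 8302, 7626, 7135, 7443 and 7558 and SAMC-null libraries 5324, 5292, 4991, 5213 and 5038. SAMC-null and I172G lay wholly below control, whereas 1 P223L library reached into the control range. The change was -0.78 ± 0.05 in SAMC-null (adjusted p = 9.9e-09) and -0.32 ± 0.07 in I172G (adjusted p = 0.00841). In P223L it was -0.22 ± 0.05 (adjusted p = 0.00227) on the deposited scale but 0.19 under total-sum scaling.

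ND-49, ND-24 (the homologue of NDUFV2) and ND-20 (the homologue of NDUFS7) also belong to the core, ND-49 near the site of ubiquinone reduction, ND-24 and ND-20 as carriers of iron-sulfur clusters. ND-49 stood at 6023, 5847, 4997, 5977 and 5338 in control, 4152, 5078, 4963, 4448 and 3974 in I172G, 4194, 3808, 3673, 3702 and 3829 in SAMC-null, and 6419, 6011, 5420, 5251 and 5654 in P223L. ND-24 stood at 3047, 2952, 2524, 3033 and 2973 in control, 2420, 2897, 2809, 2679 and 2128 in I172G, 2241, 2010, 1920, 1994 and 2042 in SAMC-null, and 3429, 3087, 2857, 2851 and 3017 in P223L. ND-20 stood at 2984, 3096, 2712, 3069 and 2944 in control, 2855, 3180, 3259, 2850 and 2532 in I172G, 2416, 2175, 2143, 2146 and 2083 in SAMC-null, and 3392, 3144, 2704, 2758 and 2951 in P223L. For each of these genes P223L overlapped control and SAMC-null lay wholly below it. In SAMC-null the changes were -0.55 for ND-49, -0.51 for ND-24 and -0.43 for ND-20, and all 3 passed the test on the deposited scale but turned to 0.05, 0.10 and 0.17 under total-sum scaling. ND-49 also fell in I172G, by -0.32 ± 0.08 (adjusted p = 0.0142).

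**Figure D2:**
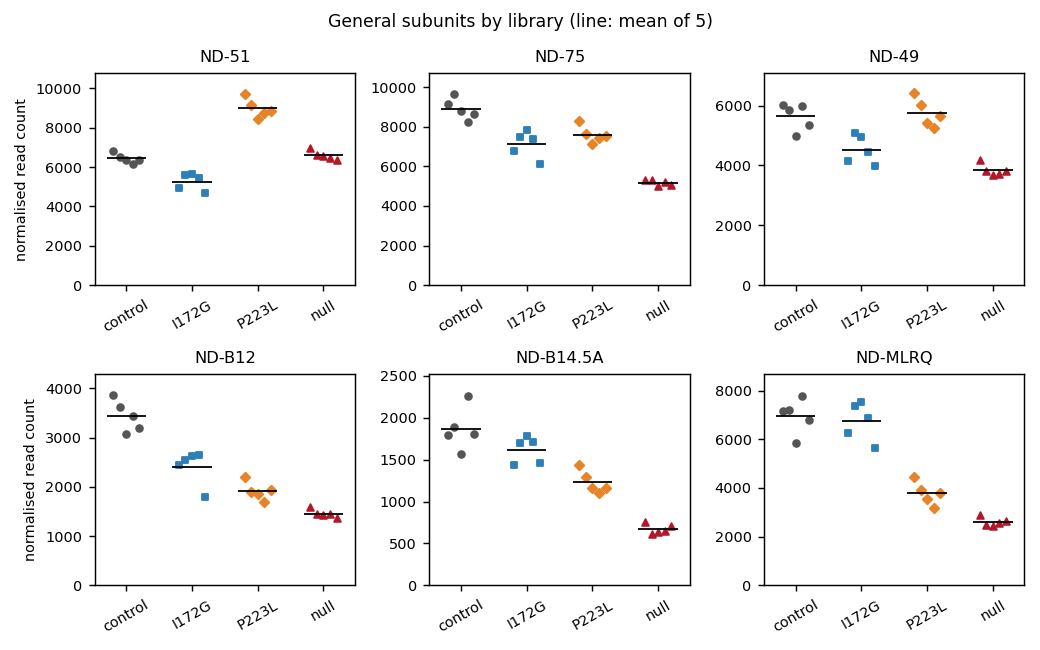
Normalised read counts of 6 general subunits in each of the 20 libraries, with a line at the mean of each group of 5. ND-51 is highest in P223L, ND-49 overlaps between control and P223L, and ND-B12, ND-B14.5A and ND-MLRQ step down from control through P223L to SAMC-null.

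Taken by role, the 7 nuclear core subunits and the accessory subunits had different counts in P223L. On the deposited scale 1 core subunit rose, 1 fell and 5 did not pass the test, with a median of 0.01, and total-sum scaling gave 7 higher. Of 26 accessory subunits, 19 fell and none rose on the deposited scale, with a median of -0.37, and total-sum scaling gave 4 lower and 10 higher. In SAMC-null 6 of 7 core and 26 of 26 accessory subunits fell on the deposited scale, with medians of -0.51 and -0.85. Total-sum scaling gave 2 lower and 3 higher of 7 core subunits, and 14 lower and 1 higher of 25 accessory subunits tested. The SAMC-null shares over all genes were 43.5% lower and 38.2% higher on the deposited scale, and 26.5% and 60.9% under total-sum scaling. I172G had 3 of 7 core and 3 of 26 accessory subunits lower on the deposited scale, with medians of -0.17 and -0.11, where 17.6% of all genes were lower. Total-sum scaling gave 3 and 4 lower, against 18.7% of all genes. Of all genes tested in P223L, 42.4% were lower and 36.3% higher on the deposited scale, and 28.5% were lower and 54.8% higher under total-sum scaling, so the 10 of 26 accessory subunits called higher on the latter scale were a smaller share than among all genes. These counts are descriptions, and no test of core against accessory subunits was made. ND-B8, which passed the filter only through its high control level, is among the accessory subunits counted as lower in each line on the deposited scale. Under total-sum scaling it is among those counted as lower in I172G and P223L.

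By place in the complex, the Q module, where ubiquinone is reduced, had 2 of 7 lower and none higher in P223L on the deposited scale, with a median of -0.03, and total-sum scaling gave 5 higher, with a median of 0.38. In the N module, which oxidises NADH, 6 of 8 fell and ND-51 rose, with a median of -0.30, while total-sum scaling gave 1 lower and 4 higher, with a median of 0.11. The proximal membrane arm had 5 of 7 and the distal membrane arm 7 of 11 lower on the deposited scale, with medians of -0.29 and -0.28, while total-sum scaling gave 3 and 5 higher with 0 and 3 lower and medians of 0.12 and 0.13. Among all genes 42.4% were lower and 36.3% higher in P223L on the deposited scale, and 28.5% and 54.8% under total-sum scaling. The module medians on both scales are descriptions of few genes, and the modules were not tested against each other. In SAMC-null 7 of 8 members of the N module, with a median of -0.83, and all members of the Q module and of both parts of the membrane arm fell on the deposited scale, with medians of -0.58, -0.73 and -0.78. Total-sum scaling gave 5 lower and 1 higher of 7 tested in the N module, 3 lower and 2 higher of 7 in the Q module, 3 lower and 0 higher of 7 in the proximal arm, and 5 lower and 1 higher of 11 in the distal arm. Among all genes 43.5% were lower and 38.2% higher in SAMC-null on the deposited scale, and 26.5% and 60.9% under total-sum scaling. ND-B8, which passed the filter only through its high control level, is among the N module members counted as lower in both severe lines on the deposited scale. It is also the N module member counted as lower in P223L under total-sum scaling.

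The accessory subunit ND-B12, the homologue of NDUFB3 in the distal membrane arm, fell in all 3 lines and on both scales. Control libraries held 3857, 3630, 3071, 3433 and 3201 normalised counts and I172G libraries 2444, 2541, 2635, 2639 and 1786. P223L libraries held 2190, 1902, 1847, 1684 and 1944 and SAMC-null libraries 1591, 1447, 1420, 1454 and 1368. Every mutant library lay below every control library, and SAMC-null lay below all other groups. The changes were -0.52 ± 0.11 in I172G (adjusted p = 0.00555), -0.85 ± 0.08 in P223L (adjusted p = 5.4e-07) and -1.24 ± 0.07 in SAMC-null (adjusted p = 3.02e-09). ND-B12 lies on 2R, bases 21658078 to 21658777 on the plus strand, and shares exon bases with Rae1 on the other strand. Rae1 averaged 574 normalised counts in control, 491 in I172G, 369 in SAMC-null, and 363 in P223L, and its part in the ND-B12 counts was not tested.

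ND-B17, the homologue of NDUFB6, is another distal subunit. It stood at 2728, 2806, 2350, 2834 and 2670 in control and 2328, 2569, 2654, 2497 and 2073 in I172G. P223L libraries held 1929, 1740, 1525, 1564 and 1735 and SAMC-null libraries 1265, 1184, 1146, 1143 and 1165. The 2 severe lines lay wholly below control and did not overlap each other. The change of -1.18 ± 0.06 in SAMC-null (adjusted p = 1.2e-09) had the smallest adjusted p among the general subunits, and in P223L it was -0.66 ± 0.07 (adjusted p = 2.96e-06). ND-B17 stayed lower under total-sum scaling, at -0.58 and -0.25.

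ND-B14.5A, the homologue of NDUFA7 in the N module, had the largest fall in SAMC-null among the general subunits other than ND-B8, at -1.46 ± 0.09 (adjusted p = 1.26e-08). Its control libraries held 1797, 1891, 1569, 2259 and 1802 normalised counts and its I172G libraries 1435, 1705, 1780, 1714 and 1455. P223L libraries held 1437, 1299, 1164, 1100 and 1161 and SAMC-null libraries 759, 616, 639, 654 and 705. SAMC-null lay wholly below P223L and P223L wholly below control. In P223L the change was -0.59 ± 0.10 (adjusted p = 0.0001), and -0.18 (adjusted p = 0.0998) under total-sum scaling. The gene lies on the X, bases 2172526 to 2173432, and shares exon bases with Cyp4d14, a cytochrome P450 gene on the other strand. Cyp4d14 averaged 2857 normalised counts in control, 3089 in I172G, 301 in SAMC-null, and 412 in P223L, so both genes were lower in the severe lines, and the part of Cyp4d14 in the ND-B14.5A counts was not tested.

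ND-MLRQ is the fly homologue of mammalian NDUFA4, once assigned to complex I and since placed in complex IV. It stood at 7145, 7192, 5863, 7787 and 6782 in control and 6264, 7380, 7514, 6872 and 5639 in I172G. P223L libraries held 4437, 3898, 3548, 3196 and 3795 and SAMC-null libraries 2883, 2467, 2425, 2562 and 2648. The severe lines lay wholly below control, and I172G overlapped it. The changes were -0.88 ± 0.09 in P223L (adjusted p = 1.57e-06) and -1.42 ± 0.07 in SAMC-null (adjusted p = 2.53e-09). Per kilobase of annotated exon ND-MLRQ was the highest of the general subunits in all 4 groups, at 12925 normalised counts in control and 4827 in SAMC-null. In control the lowest apart from ND-B8 was ND-B18 (the homologue of NDUFB7), at 1335 per kilobase.

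ND-B8, the homologue of NDUFA2, stood apart through its very low level. Its control libraries held 17.21, 51.4, 11.7, 18.5 and 25.5 normalised counts and its I172G libraries 9.07, 4.63, 13.9, 7.82 and 12.3. P223L libraries held 2.17, 0, 1.09, 4.10 and 3.68 and SAMC-null libraries 3.21, 2.35, 6.06, 0.828 and 7.496. Both severe lines lay wholly below control, with normalised counts below 10 throughout. Because ND-B8 passed the filter only through its control level, no fold change is given for it as a result. Its I172G call (adjusted p = 0.0461) was lost on leaving out any of 7 of the 10 libraries, with adjusted p up to 0.108. Its exons overlap those of Gs1l on the other strand, which averaged 713 normalised counts in control and 1070 in P223L.

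Among the remaining accessory subunits, ND-AGGG, ND-15 and ND-B15 had the next larger falls in P223L, at -0.71, -0.60 and -0.51, and in SAMC-null, at -1.07, -1.10 and -1.05 (the homologues of NDUFB2, NDUFS5 and NDUFB4). ND-15 shares exon bases with CG3436 on the same strand, which averaged 475 normalised counts in control and 389 in SAMC-null. At the other end, ND-39 stood at 0.02 in P223L on the deposited scale, as the only accessory subunit above 0 there. ND-SGDH, ND-MNLL and ND-PDSW (the homologues of NDUFB5, NDUFB1 and NDUFB10) did not pass the test in P223L on that scale, at -0.03, -0.05 and -0.08. In SAMC-null they fell on the deposited scale, at -0.43, -0.51 and -0.74, and ND-SGDH and ND-MNLL turned to 0.17 and 0.09 under total-sum scaling. The acyl carrier protein ND-ACP, which also serves mitochondrial fatty acid synthesis, changed by -0.24 in P223L and -0.70 in SAMC-null, and its P223L value turned to 0.17 under total-sum scaling. CG40472 differed between P223L and SAMC-null by 0.41 (adjusted p = 0.00634) on the deposited scale, a call lost under total-sum scaling, at 0.22 (adjusted p = 0.0869), and passed the test against control in no line on the deposited scale.

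Annotated exon length moved with these differences. The 33 general subunits taken here leave out ND-B8 and include ND-MLRQ, at 538 bases. Across these 33, the Spearman correlation of log2 fold change with exon length was 0.49 in P223L and 0.43 in SAMC-null, as a description across genes that share the same libraries. Over all protein-coding genes tested it was 0.26 among 11887 genes and 0.29 among 11930. In P223L the general subunits under 750 bases had a median of -0.39, and all coding genes of that length -0.48. Those of 1500 bases or more had medians of 0.02 and 0.06. In SAMC-null the medians were -0.89 against -0.66 under 750 bases and -0.58 against 0.09 from 1500 bases. General subunits thus had a P223L median close to that of coding genes of their length, and a SAMC-null median below it in each length class. Core subunits ranged from 819 to 2634 bases and accessory subunits from 460 to 1618, ranges that overlap, and the separate parts of role and length were not tested. Between P223L and SAMC-null the medians of the general subunits were 0.49 and 0.58 in the same length classes, against 0.08 and -0.05 for all coding genes.

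**Figure D3:**
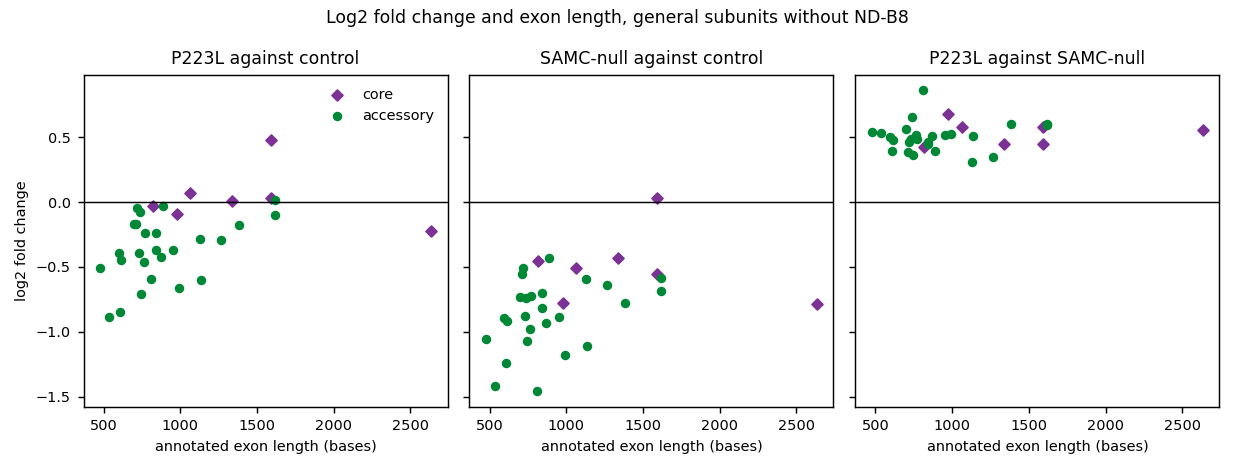
Log2 fold change on the deposited scale against annotated exon length for 33 general subunits, core subunits as diamonds. Accessory subunits are circles, and so is ND-MLRQ, at 538 bases. Shorter subunits lie lower against control in both severe lines, and all lie above 0 between P223L and SAMC-null.

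The 6 paralogues were low in every group. Per kilobase of exon they reached 0.596% (ND-51L2) to 3.86% (ND-20L) of the level of their general partner in control larvae. ND-20, ND-24 and ND-B14.5A lie on the X, while ND-20L lies on 3R and ND-24L and ND-B14.5AL on 3L. ND-49 lies on chromosome 4 with ND-49L on 3R, and ND-51 on 2L with ND-51L1 and ND-51L2 on 2R. No paralogue is on the X, against 9 of 34 general subunits, and 5 of 6 have a transcript with a single exon, against 2 of 34. ND-49L lies 0.32 Mb from the carrier gene on 3R. Reads that fit both a paralogue and its partner could be divided between them by the quantification, so low paralogue levels are uncertain.

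ND-20L and ND-24L were listed at 0 in all 5 P223L libraries. ND-20L stood at 65.7, 85.3, 49.7, 44.3 and 89.95 normalised counts in control, at 47.2, 27.9, 35.0, 28.4 and 36.5 in I172G, and at 0, 0, 1.56, 0.855 and 0 in SAMC-null. ND-24L stood at 51.5, 59.7, 48.0, 20.8 and 40.6 in control, at 28.2, 8.05, 23.7, 25.2 and 23.7 in I172G, and at 0, 0, 0, 0 and 0.848 in SAMC-null. Both severe lines lay wholly below control for both genes, at 1 or 2 reads at most. In I172G the changes were -0.89 ± 0.24 for ND-20L (adjusted p = 0.017) and -1.01 ± 0.37 for ND-24L, which missed the threshold (adjusted p = 0.0561) and passed it without control replicate 4 (adjusted p = 0.0125).

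ND-49L fell in both severe lines without reaching 0. Its libraries held 124, 155, 154, 81.2 and 171 normalised counts in control, 118, 82.6, 70.3, 97.7 and 99.3 in I172G, 26.8, 23.1, 25.7, 25.0 and 31.1 in SAMC-null, and 10.98, 40.9, 28.4, 41.2 and 34.6 in P223L. The severe lines lay wholly below the other groups and overlapped each other. The changes were -2.18 ± 0.34 in P223L (adjusted p = 6.27e-05) and -2.30 ± 0.20 in SAMC-null (adjusted p = 2.77e-07). I172G missed the threshold at -0.52 ± 0.21 (adjusted p = 0.0779) and passed it without control replicate 4 (adjusted p = 0.00629). ND-B14.5AL held 14.98, 13.99, 35.6, 4.64 and 18.9 in control, 20.2, 3.50, 14.04, 8.89 and 22.6 in I172G, 4.77, 3.90, 6.09, 8.40 and 9.24 in SAMC-null, and 1.07, 1.09, 2.14, 1.01 and 1.85 in P223L. P223L lay wholly below control, at 1 or 2 reads, and SAMC-null overlapped the lowest control library. ND-B14.5AL passed the filter against control only in I172G, where its change was -0.31 (adjusted p = 0.699).

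The paralogues of ND-51 kept a measurable level in all groups. ND-51L1 held 218, 264, 196, 139 and 229 normalised counts in control, 146, 107, 127, 155 and 155 in I172G, 132, 142, 97.2, 117 and 131 in SAMC-null, and 118, 110, 121, 111 and 118 in P223L. P223L lay wholly below control, and I172G and SAMC-null overlapped it at control replicate 4. ND-51L1 fell by 0.82 ± 0.15 in P223L (adjusted p = 0.000259), by 0.73 ± 0.17 in SAMC-null (adjusted p = 0.00131) and by 0.58 ± 0.17 in I172G (adjusted p = 0.026). The I172G call was lost on leaving out any of 5 libraries (adjusted p up to 0.0634) and with the replicate block (adjusted p = 0.0679), and the SAMC-null value was -0.13 (adjusted p = 0.467) under total-sum scaling. ND-51L2 held 35.1, 52.9, 37.7, 25.8 and 37.4 in control, 19.7, 18.5, 13.97, 24.2 and 12.6 in I172G, 29.7, 32.98, 34.6, 26.5 and 35.0 in SAMC-null, and 32.8, 39.7, 13.1, 47.0 and 26.1 in P223L. I172G lay wholly below control, and the severe lines overlapped it. The I172G change was -1.05 ± 0.25 (adjusted p = 0.0108), while P223L and SAMC-null stood at -0.33 and -0.21 (adjusted p = 0.359 and 0.321).

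**Figure D4:**
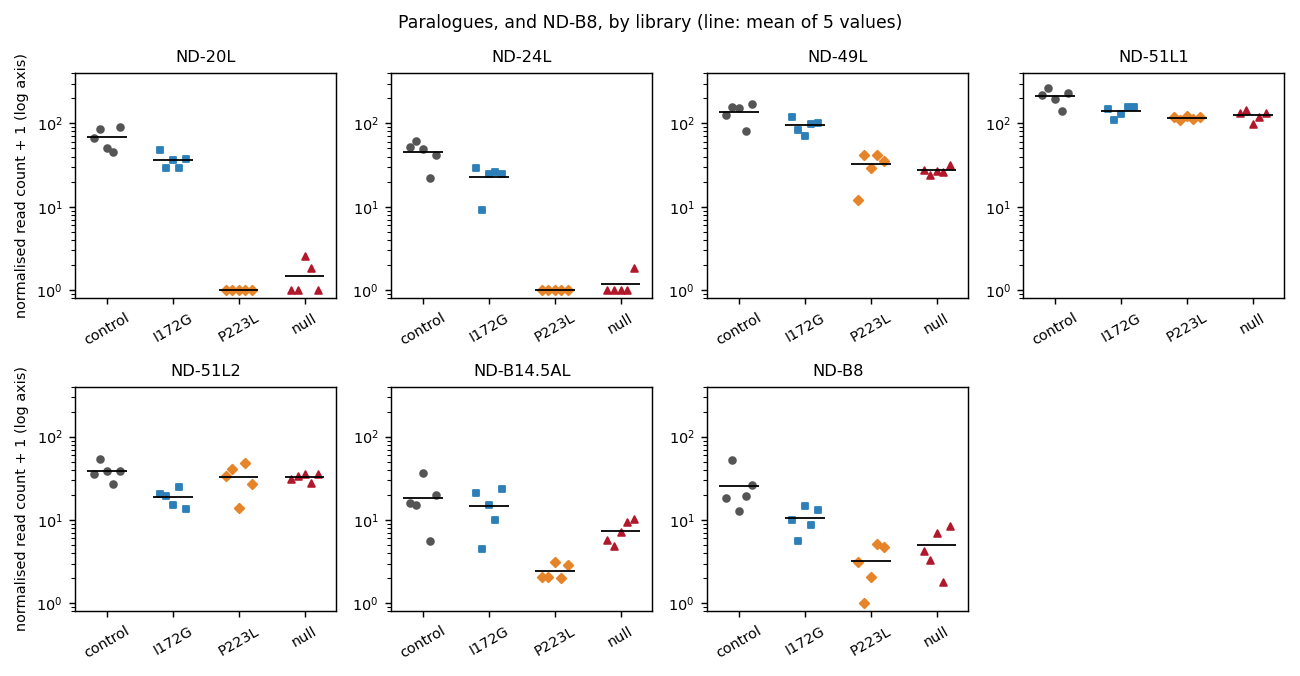
Normalised read counts plus 1, on a log axis, of the 6 paralogues and of ND-B8 in each of the 20 libraries, with a line at the mean of each group of 5. ND-20L and ND-24L sit at the bottom of the axis in P223L, where every library is listed at 0, whereas ND-51L1 and ND-51L2 stay within one decade of control in all groups.

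The ratio of each paralogue to its partner within a library does not depend on the scaling of libraries apart from the added 1. Over 30 such comparisons the exact two-sided permutation test with 5 libraries a side could not go below p = 0.00794, and the smallest adjusted p obtained was 0.0149. In P223L against control 5 of 6 ratios passed, each with the paralogue lower relative to its partner, and in SAMC-null 4 of 6. ND-20L and ND-24L are in both counts, although they were at 0 in every P223L library and in most SAMC-null libraries. Their ratios there rest on the added 1 and on the partner, so these passes only restate the zeros. ND-B14.5AL, also counted in P223L, did not pass the filter there. The log2 ratio of ND-51L1 to ND-51 differed from control by -1.298 in P223L and by -0.77 in SAMC-null, and that of ND-49L to ND-49 by -2.21 and -1.75, each at adjusted p = 0.0149. ND-51L1 and ND-51L2 share ND-51 as the denominator, which itself was highest in P223L. The ratio of ND-B14.5AL to ND-B14.5A differed by -2.13 in P223L (exact permutation adjusted p = 0.0251), a call lost with a pseudocount of 4 (adjusted p = 0.0567), and by 0.32 in SAMC-null (adjusted p = 0.646). In I172G 2 of 6 passed, ND-51L2 at -0.75 (adjusted p = 0.0251) and ND-20L at -0.87 (adjusted p = 0.0357). Both I172G calls were lost on leaving out single libraries, where the fewer splits also raise the smallest p, with adjusted p of 0.0501 and up to 0.0595.

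Markers of other tissues also differed between the groups. The 25 testis markers were chosen because several such copies of respiratory chain genes are known as testis transcripts in Drosophila. They summed to 3593 to 8173 normalised counts in control, 2764 to 4322 in I172G, 2341 to 2518 in SAMC-null, and 2246 to 2543 in P223L. Of 24 tested, 19 were lower in I172G, with a background of 17.6%. Only 7 of the 25 passed the filter between the 2 severe lines. Most were therefore tested against control only because of their control level, and no count of calls is given for the severe lines. In all 5 libraries 7 were at 0 in P223L and 11 in SAMC-null, among them Mst84Da, Mst84Db, Mst84Dc, Mst84Dd, hale and ocn in both. The remaining sum in the severe lines came mostly from bol, at 1610 in P223L and 1634 in SAMC-null. The same marker stood at 1668 in control and 1059 in I172G. Control replicate 4 had the lowest testis sum of the controls and the lowest level of each of the 6 paralogues among them. The part of testis transcripts in the paralogue results was not tested.

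Muscle markers were lower in both severe lines, whereas the direction of the general subunits in P223L depended on the scale. The 15 muscle genes summed to 2.02 to 2.48 M in control, 1.90 to 2.20 M in I172G, 0.532 to 0.553 M in SAMC-null, and 0.980 to 1.07 M in P223L. All 15 fell in both severe lines on either scale, with deposited medians of -1.14 and -1.76. In P223L against SAMC-null 15 of 15 were higher, with a median of 0.90, and 14 under total-sum scaling, against 22.4% and 10.4% of all genes. Neuronal markers moved the other way, with 9 of 10 higher in each severe line and sums of 23995 to 28973 and 27516 to 29377 against 8946 to 10559 in control. Gut markers summed to 532543 to 605329 in control, 283030 to 365504 in I172G, 93822 to 98647 in SAMC-null, and 179334 to 213103 in P223L. On the deposited scale 9 of 10 were lower and 1 higher in P223L, and 8 lower and 1 higher in SAMC-null. Backgrounds were 42.4% lower and 36.3% higher in P223L, and 43.5% and 38.2% in SAMC-null. In I172G 10 of 10 were lower, with a background of 17.6%. Between P223L and I172G 5 were higher and 5 lower, with backgrounds of 38.0% and 42.9%. The part of muscle, gut or any other tissue in the subunit results was not tested.

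The other nuclear subunits of the respiratory chain had the same order of deposited medians over the lines. Of 34 subunits of complexes II to V, copies ending in L left aside, 34 fell in SAMC-null, 27 in P223L and 5 in I172G on the deposited scale, with medians of -1.04, -0.45 and -0.11, against backgrounds of 43.5%, 42.4% and 17.6%. Total-sum scaling gave 27 lower and 2 higher in SAMC-null, against 26.5% and 60.9% of all genes, 12 lower and 11 higher in P223L, against 28.5% and 54.8%, and 8 lower in I172G, against 18.7%. In P223L against SAMC-null 32 of 32 tested were higher, with a median of 0.61, and 31 under total-sum scaling, against 22.4% and 10.4% of all genes. The rest of the 34 did not pass the filter between the severe lines, so any call of theirs against control rests on the control level. COX6B, a complex IV subunit, fell by 0.72 ± 0.05 in P223L and by 1.34 ± 0.04 in SAMC-null, and SdhA, the flavin subunit of complex II, by 0.55 ± 0.05 in SAMC-null, a value that turned to 0.06 under total-sum scaling. Some of the 8 copies ending in L passed the filter only through the control libraries, so no count of them is given. ATPsynGL, 1 of these copies, averaged 78.7 normalised counts in control and 41.2 in I172G, and it was listed at 0 in all P223L libraries.

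The mitochondrially encoded core subunits did not move as 1 group. Of the 6 in the tables, mt:ND1 stood at 8073 ± 427 (SD, n = 5) in control, 6374 ± 783 in P223L and 4353 ± 223.3 in SAMC-null. It fell by 0.89 ± 0.05 in SAMC-null (limma adjusted p = 4.65e-09) and, on the deposited scale alone, by 0.35 ± 0.08 in P223L (adjusted p = 0.00126), where total-sum scaling gave 0.06. mt:ND4L rose from 12139 ± 703 to 18690 ± 2000 in P223L, by 0.62 ± 0.07 (adjusted p = 6.02e-06), and to 14659 ± 1172 in SAMC-null, by 0.27 ± 0.06 (adjusted p = 0.00153). mt:ND3 rose by 0.76 ± 0.16 and 0.66 ± 0.12. mt:ND5 was at -0.19 ± 0.05 in SAMC-null (adjusted p = 0.00574) on the deposited scale and 0.41 under total-sum scaling. In I172G none of the 6 passed limma's test on the deposited scale, 1 had an unadjusted p under 0.05 (mt:ND5, adjusted p = 0.102), and mt:ND5 passed under total-sum scaling at -0.20 (adjusted p = 0.0334).

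Assembly factors, which help to build complex I without staying in it, were also measured. Egm, the homologue of mammalian ACAD9, rose from 752 ± 52.7 in control to 1069 ± 52.0 in P223L, by 0.51 ± 0.06 (adjusted p = 6.44e-06), and by 0.14 ± 0.06 in SAMC-null (adjusted p = 0.0388). The SAMC-null call was lost with the replicate block (adjusted p = 0.0706), with all 4 groups in 1 fit (adjusted p = 0.0592) and without any of 6 single libraries (adjusted p up to 0.0957). The NDUFAF6 homologue sicily rose by 0.44 ± 0.09 in P223L (adjusted p = 0.000488) and by 0.40 ± 0.07 in SAMC-null (adjusted p = 0.000117). ECSIT rose by 0.38 ± 0.12 in P223L (adjusted p = 0.0115) and stood at -0.32 ± 0.10 in I172G (adjusted p = 0.0359). The ECSIT call in I172G was lost with no filter (adjusted p = 0.0516), with median-ratio rescaling (adjusted p = 0.0548), with the replicate block (adjusted p = 0.0890) and without any of 7 single libraries (adjusted p up to 0.0866). CIA30, the homologue of NDUFAF1, fell by 0.41 ± 0.08 in SAMC-null on the deposited scale (adjusted p = 0.000334), a value that turned to 0.19 under total-sum scaling. Of the 6 factors measured, 3 rose and none fell in P223L, and 2 rose and 2 fell in SAMC-null, while total-sum scaling gave 6 higher in each. Among all genes 36.3% were higher in P223L, and in SAMC-null 38.2% were higher and 43.5% lower, on the deposited scale, while 54.8% and 60.9% were higher under total-sum scaling.

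**Figure D5:**
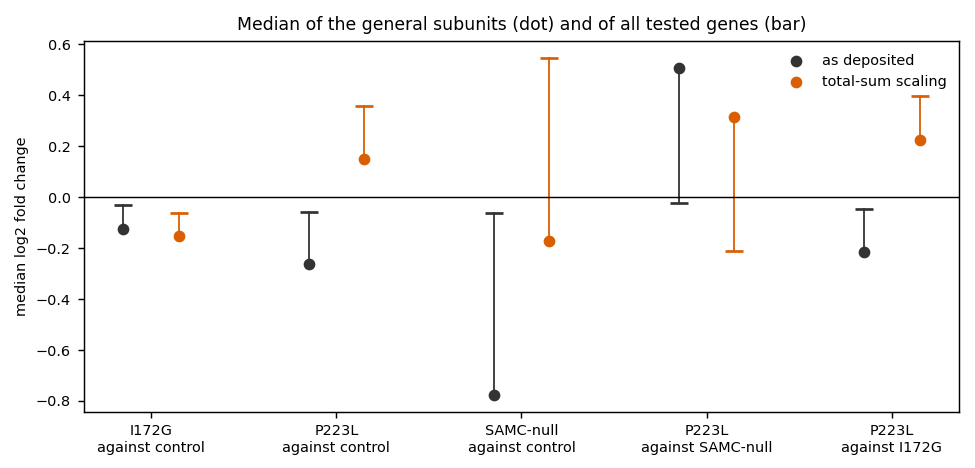
Median log2 fold change of the general subunits (dots) and of all tested genes (bars) in each comparison, as deposited and after scaling each library to the same sum. Scaling multiplies each library by a common factor, so dot and bar move together by construction. The general subunits stay 0.71 to 0.72 below all genes in SAMC-null, 0.20 to 0.21 below in P223L and 0.53 above in P223L against SAMC-null.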

How the data were processed

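Values were the authors' normalised read counts (signal), and per the submitters' processing notes Salmon 0.11.3, DESeq2 1.26.0 and BDGP6 were used; strand settings and filters are not given in the sources used here. The deposited tables of the 3 lines held the same controls to within 0.005. The authors' deposited log2 fold changes, standard errors, p-values and test statistics (a score) came with them. Groups came from the labels. Symbols, positions and exon lengths came from Ensembl 115 (BDGP6.54), which matched 13853 of 14081 identifiers. Of 34 general subunits, 16 share exon bases with a gene on the other strand and 4 with a gene on the same strand.

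In R 4.3.3, limma 3.58.1 with an intensity trend was fitted to log2(value + 1) for the 2 groups of each comparison, with genes of at least 10 counts in at least 5 of 10 libraries, with Benjamini-Hochberg adjustment over every tested gene and a threshold of 0.05. The fit was tested on simulated data. Log2 ratios of paralogue to partner were compared by exact permutation of libraries. Full values are given for all paralogues and partners and, per line, for the 3 general subunits with the smallest adjusted p and the 3 with the largest change. Alternatives were other pseudocounts, filters and scalings, 1 fit of all groups, a replicate block, the authors' deposited adjusted p-values and leaving out each library; total-sum scaling was added after seeing the data. The members and lists were chosen with earlier results of these data known.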

Additional observations from a re-analysis of the deposited data

Results flagged for a closer look

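In groups of 5 libraries, a sample was singled out when its gap to the nearest of the others exceeded Dixon's 95% limit for the share of the whole range. This happened in 13 of 164 groups of members. The groups share the same 20 libraries, so this count cannot be set against the 1 in 20 that chance gives for independent groups. SAMC-null replicate 1 was the high sample in 6 of the 13 groups. Its general subunits summed to 67882 normalised counts (others 61672 to 63037). Its ND-42 was 2855 normalised counts (others 2567 to 2607), its ND-20 was 2416 (2083 to 2175) and its ND-15 was 1079 (883 to 928). Its ND-B14.7 was 2123 (1847 to 1890), its ND-13B was 1184 (1026 to 1070) and its ND-MWFE was 778 (685 to 708). Control replicate 3 was low for ND-42 at 4003 (4280 to 4354) and for ND-24 at 2524 (2952 to 3047). I172G replicate 5 was low for ND-B22 at 2238 (2591 to 2725) and for ND-B12 at 1786 (2444 to 2639). ND-24L stood at 8.05 in I172G replicate 2 (23.7 to 28.2) and at 0.848 in SAMC-null replicate 5, where the others were listed at 0. CG40472 stood at 453 in control replicate 4 (326 to 355).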

How the results depend on the processing

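Counts of general subunits called in each direction stayed within 1.5 times under other pseudocounts, filters, median-ratio rescaling, 1 fit of all groups, the replicate block and every library left out. With the authors' deposited adjusted p, whose p-values match a test against a log2 fold change of 1 rather than 0, 0 fell in I172G, 1 fell and 0 rose in P223L, and 3 fell in SAMC-null. Total-sum scaling gave 17 higher and 5 lower in P223L, 4 higher and 17 lower in SAMC-null, and 22 higher and 2 lower in P223L against I172G. Its reversals against control in P223L were ND-ACP 0.17, ND-SGDH 0.38, ND-75 0.19, ND-23 0.38, ND-42 0.32, ND-PDSW 0.33, ND-B16.6 0.12, ND-ASHI 0.23, ND-MNLL 0.36, ND-B18 0.13, ND-18 0.17, ND-B17.2 0.020, ND-13A 0.042, ND-B14.7 0.24, ND-19 0.25, ND-13B 0.021, ND-MWFE 0.040, ND-30 0.32, mt:ND1 0.064, CIA30 0.28, SdhA 0.32 and SdhB 0.38. In SAMC-null they were ND-SGDH 0.17, ND-23 0.15, ND-MNLL 0.094, ND-B18 0.011, ND-20 0.17, ND-24 0.096, ND-B14.7 0.048, ND-39 0.020, ND-49 0.053, CG40472 0.34, mt:ND5 0.41, CG17726 0.23, CIA30 0.19, CG4743 0.46, SdhA 0.058 and SdhB 0.20. In P223L against I172G they were ND-ACP 0.21, ND-PDSW 0.39, ND-B14.5A 0.048, ND-B16.6 0.094, ND-ASHI 0.27, ND-B18 0.23, ND-18 0.30, ND-B17.2 0.23, ND-B14.5B 0.059, ND-13A 0.22, ND-B22 0.090, ND-B14 0.12, ND-B15 0.11, ND-B14.7 0.27, ND-B12 0.12, ND-19 0.31, ND-13B 0.17, ND-MWFE 0.15, ND-30 0.18, mt:ND1 0.22, mt:ND2 0.38, CG3262 0.32 and SdhD 0.056. The larger sums of the control and I172G libraries set these shifts by construction.

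Same-numbered libraries did not deviate together: correlations ran from -0.214 to 0.0957, with 0 of 5 pairs over 0.1 in any comparison and at most 1 of 5 libraries closest to its own number. With the replicate block 5 general subunits fell in I172G, 22 fell and 1 rose in P223L, and 33 fell in SAMC-null. Leaving out 1 library lost the P223L call of ND-B14.7 against control in 7 cases (adjusted p up to 0.0937). In P223L against I172G, the lower calls of ND-18, ND-B17.2, ND-13A and ND-B15 were each lost without any of several single libraries. So was the higher call of ND-42 (limma adjusted p up to 0.112 over these subunits). Levels of a few reads limit ND-B8, ND-20L, ND-24L and ND-B14.5AL.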

Other observations

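In control larvae the 6 paralogues together summed to 316 to 631 normalised counts per library, in I172G to 248 to 380, in P223L to 163 to 201 and in SAMC-null to 165 to 207. P223L and SAMC-null lay wholly below the other groups and overlapped each other. In these severe lines ND-51L1 held the largest part of the sum, at 110 to 121 and 97.2 to 142 normalised counts.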
